A study of Mus musculus with 92 samples.

Results

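Whole blood of wild type mice was compared between 2 ages of young adulthood, 100 days (7 arrays) and 70 days (8 arrays). The 15 arrays were chosen by their titles, as wild type blood, out of 31 blood arrays and 92 arrays of blood, leg muscle and spinal cord. The mice were wild type littermates from B6.Cg-Tg(G93A-SOD1)1Gur/J, a line in which carriers express a mutant human superoxide dismutase 1 transgene and develop motor neuron disease. The labels give no treatment and no sex, and the Y-linked genes Uty, Kdm5d and Eif2s3y were detected on 0 of the 15 arrays. The other blood groups, used for comparison, were transgenic G93A-SOD1 mice of 100 days (8 arrays) and 70 days (8 arrays). All blood was collected into PAXgene tubes, which stabilise RNA, and most globin transcripts were removed before labelling for Illumina bead arrays. The labels do not say whether the arrays of a group came from different mice, so the p-values rest on the spread between arrays. In the limma tests that spread was pooled over the 31 blood arrays of both genotypes.

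Whole blood holds red cells, platelets and white cells, and its RNA is a mixture of what each carries. Young red cells and platelets no longer have a nucleus but keep transcripts made by their precursors in the bone marrow, while lymphocytes, monocytes and granulocytes transcribe their own. A difference in whole blood can therefore come from the proportions of these cells or from the transcripts in each, and in these bulk samples fewer cells of a type and less RNA per cell cannot be told apart.

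The wild type arrays carried the defining markers of B cells, T cells, neutrophils, monocytes, platelets and red cells, whereas Meis1, a marker of progenitors, was detected on 2 of 7 arrays at 100 days and 2 of 8 at 70 days. The log2 intensity of Cd79b, a part of the B cell receptor, averaged 12.76 ± 0.65 over the 15 arrays (SD), that of Cd8b1, a T cell coreceptor, 11.77 ± 0.45, and that of S100a8, a calcium-binding protein of neutrophils, 12.72 ± 0.62. Ppbp, a platelet chemokine precursor, averaged 13.59 ± 0.57 and Slc4a1, the anion exchanger of the red cell membrane, 14.69 ± 0.37. Of 6 liver markers 4 were detected on 0 of 15 arrays, Alb among them, and Apoa1 reached 7 arrays. Of 5 endothelial markers 3 were never detected, Cdh5 among them, and Emcn was detected on 11 arrays. Of 6 fibroblast and matrix markers 4 were never detected, and Dcn was detected on 14. Of 3 adipose markers 1 was never detected, and Adipoq was detected on 5. Each of 6 keratinocyte markers was detected on 1 or 2 arrays, all of 70 days. Sbsn, the gene of suprabasin, had a highest log2 intensity of 11.65 at 70 days, on replicate 1, and of 5.41 at 100 days.

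Genes known from macrophages resident in tissues separated the arrays into 2 sets, each with arrays of both ages. The ages were unevenly spread: the set of higher intensity held 1 of 7 arrays of 100 days and 4 of 8 of 70 days. Whether the sets went with age was not tested. The mean log2 intensity of C1qa, C1qb and C1qc, the chains of complement C1q, was 9.06 to 10.18 on 5 wild type arrays and 4.59 to 4.89 on the other 10. The 5 arrays were replicate 5 at 100 days and replicates 4, 5, 6 and 7 at 70 days, and each C1q gene was detected on these 5 alone. Of 18 such genes on the array (a list made after these values were seen) 15 were higher on each of the 5 arrays than on any of the other 10, and 3 were not. The 15 include C1qa, C1qb and C1qc, by which the 5 arrays were set apart, and the same count was not made over all genes. Mrc1, the mannose receptor, was one of the 15 by a margin of 6.503 against 6.501. Folr2, a folate receptor, was another by 4.795 against 4.747, and was detected on only 3 of 15 arrays. Marco, Cd5l and Cd163 were the 3 that were not. Retnla, a secreted protein of alternatively activated macrophages, had a lowest, median and highest log2 intensity of 4.60, 4.66 and 11.88 at 100 days, against 4.62, 7.82 and 12.06 at 70 days. Fcna, the lectin ficolin A, had 4.44, 4.74 and 9.66 at 100 days, against 4.40, 6.91 and 9.72 at 70 days. Vsig4, a complement receptor of resident macrophages, had 4.56, 4.71 and 7.32 at 100 days, against 4.62, 5.75 and 7.70 at 70 days. In each of these the single high array at 100 days lay within the range of the 4 high arrays at 70 days. Of the list 13 genes entered the test, and Cd163, a haemoglobin scavenger receptor of other resident macrophages, was detected on 0 of 15 arrays. Among the G93A-SOD1 arrays 1 of 8 at 100 days and 1 of 8 at 70 days had a high C1q mean, 8.99 and 8.15 in that order, and the others reached at most 4.87.

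Genes of the airway lining were also present, on more arrays. Scgb1a1, the secretory protein of airway club cells, was detected on 14 of 15 arrays, with a lowest, median and highest log2 intensity of 4.85, 10.09 and 12.24 at 100 days, against 6.67, 9.68 and 12.91 at 70 days. Bpifa1, an antimicrobial protein of the upper airway, was detected on 13 arrays, with 5.26, 9.24 and 10.66 at 100 days, against 4.98, 9.34 and 10.65 at 70 days. Replicate 4 at 100 days was the low array for both genes in its group, and replicate 8 was the low one at 70 days. Cyp2f2, a cytochrome P450 of club cells, was detected on 13 arrays. Surfactant protein genes were mixed. Sftpc, Sftpb and Sftpa1, surfactant proteins of the alveolus, and the epithelial adhesion gene Epcam were detected on 0 of 15. The surfactant protein gene Sftpd, however, was detected on 14 of 15. Its lowest, median and highest log2 intensity were 5.47, 6.91 and 8.15 at 100 days, against 5.27, 6.87 and 8.19 at 70 days. The differences between the ages were -0.37 log2 units for Scgb1a1 (SE 0.95) and 0.17 for Bpifa1 (SE 0.90), with limma adjusted p of 0.900 and 0.959. The part of the macrophage and airway transcripts in the age differences was not tested, and the main results are given below with and without the 7 blood arrays of high C1q, which leaves 6 wild type arrays at 100 days and 4 at 70 days.

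**Figure D1:**
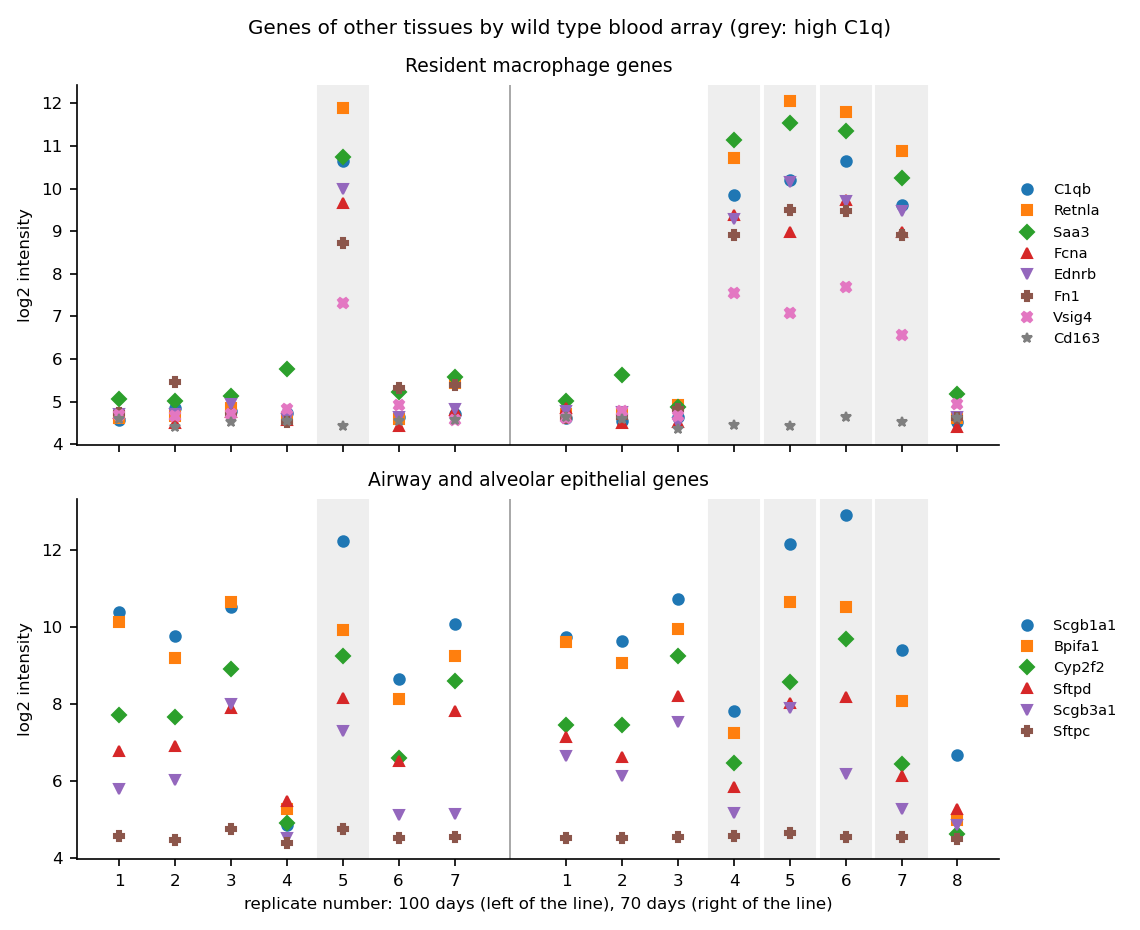
Log2 intensity (vertical axis) of genes of resident macrophages (top) and of airway and alveolar epithelium (bottom) on each wild type blood array, 100 days left of the line and 70 days right of it. Of the 8 macrophage genes drawn all but Cd163 were high on the same 5 arrays (grey bands), while the airway genes varied over most arrays of both ages and Sftpc stayed near 4.5.

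Array quality did not differ detectably with age. Arrays detected 7250 to 9231 probes at 100 days, against 6809 to 9136 at 70 days, and none of 4 measures of signal or detection passed the exact two-sided permutation test (adjusted p from 0.486 to 0.695 over the 4). Replicate 6 at 70 days stood apart, with a median raw intensity of 190.8, against at most 89.9 on the other 7 arrays of its group and at most 82.1 on the arrays of 100 days. Precision is set by how many arrays there are.

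No gene passed the limma test between 100 and 70 days. Intensities were background corrected and quantile normalized on the log2 scale, 8403 genes detected on at least 7 blood arrays were tested with limma, and 0 of them (0%) had an adjusted p under 0.05. At an unadjusted p under 0.05 there were 816 genes (9.71%), 422 higher (5.02%) and 394 lower (4.69%) at 100 days, where 420 in all would be expected if no gene differed. The smallest adjusted p was 0.0596. Without replicate 6 at 70 days 0 of 8336 genes passed, 557 (6.68%) had an unadjusted p under 0.05, and the smallest adjusted p was 0.0864. The median difference over all genes was 0.03 log2 units, and the standard error of a gene was 0.17 in the median. For 7838 genes (93.3%) the 95% interval of the difference lay within 1 log2 unit of 0, so a change of 2-fold or more fell outside it, and for 4220 (50.2%) it lay within 0.5. These values use a spread pooled over all 31 blood arrays. Genes varied less, in the median, on the G93A-SOD1 arrays than on the wild type arrays. With only wild type arrays in the limma fit, 444 genes (5.28%) had an unadjusted p under 0.05. The smallest adjusted p was then 0.592 and the standard error 0.190 in the median. For the 16 genes named below the adjusted p was 0.837 or 0.853.

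Large differences between the means were few, and those of the macrophage genes were imprecise. The difference was over 1 log2 unit for 26 genes, 5 higher and 21 lower, and 10 of the lower ones were genes of the macrophage list. That list was made after these values were seen, so this share tests nothing. The 3 C1q genes, Fcna, Ednrb, Cxcl13 and Lyz1, all among these 10, met the detection filter of 7 blood arrays through the arrays of high C1q alone. Retnla differed by -2.24 (SE 1.20) with a limma adjusted p of 0.535, and C1qc by -1.89 (SE 1.05, adjusted p = 0.553). Among the 5 higher, Rpl3l, described below, differed by 1.05 (SE 0.23). The probe ILMN_2663259, without a symbol, differed by 1.40 (limma adjusted p = 0.191). Without the 7 arrays of high C1q, 0 of 7915 genes passed by limma and 826 (10.4%) had an unadjusted p under 0.05. The differences over 1 log2 unit were then 25, 19 higher and 6 lower.

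**Figure D2:**
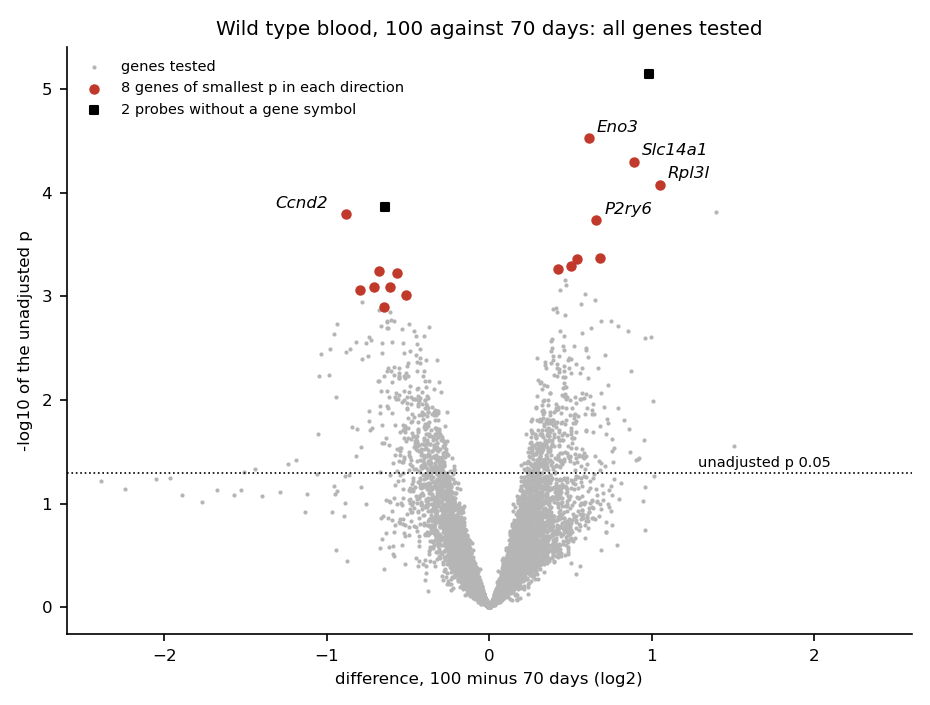
The difference between 100 and 70 days in wild type blood (horizontal axis, log2) against the negative log10 of the unadjusted limma p (vertical axis), 1 point per gene tested. The genes farthest left, among them Retnla and C1qc, lay below the dotted line at p 0.05, and the 16 named genes (red) and 2 probes without a symbol (black squares) lay near the top.

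Of the genes higher at 100 days, the 8 with a symbol and the smallest p are described first. None passed, and the ages overlapped in each. Eno3, the muscle form of the glycolytic enzyme enolase, had a lowest, median and highest log2 intensity of 7.16, 7.66 and 7.92 at 100 days, against 6.61, 7.01 and 7.27 at 70 days. The difference was 0.61 (SE 0.13, adjusted p = 0.124), or 1.53-fold, and 6 of 7 arrays of 100 days were above all arrays of 70 days. Rpl3l, a paralogue of ribosomal protein L3 known from skeletal and heart muscle, had 6.53, 6.92 and 7.67 at 100 days, against 5.02, 5.87 and 6.92 at 70 days. It was detected on 7 of 7 and 6 of 8 arrays, and the difference was 1.05 (SE 0.23, adjusted p = 0.175) with 3 arrays of 100 days above all of 70 days. Ckm, Myh4, Myh2 and Tnnt3, which define skeletal muscle, were detected on 0 of 15 arrays, while Tnni2 and Pvalb were detected on 13, Acta1 on 9 and Actn3 on 2. The mean of Tnni2, Pvalb and Acta1, the 3 muscle markers tested, was 0.02 ± 0.61 at 100 days and -0.02 ± 0.88 at 70 days (SD, relative to all wild type blood).

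Slc14a1, the urea transporter of the red cell membrane, had a lowest, median and highest log2 intensity of 6.01, 6.56 and 7.29 at 100 days, against 5.11, 5.82 and 6.06 at 70 days. The difference was 0.89 (SE 0.19, adjusted p = 0.141), or 1.85-fold, and the lowest array of 100 days, one of high C1q, overlapped the highest of 70 days. Its 2 other probes differed less, by 0.13 (SE 0.17) and 0.32 (SE 0.20). P2ry6, a receptor for the nucleotide UDP on monocytes and macrophages, had 6.94, 7.29 and 7.44 at 100 days, against 6.14, 6.51 and 7.18 at 70 days (difference 0.66, SE 0.16, adjusted p = 0.193). All but 1 array of 70 days lay below every array of 100 days. Treml4, a receptor of the monocytes that patrol vessels, had 5.81, 6.16 and 6.51 at 100 days, against 4.80, 5.46 and 5.95 at 70 days, where it was detected on 4 of 8 arrays. Its difference was 0.68 (SE 0.17, adjusted p = 0.355), and 5 of 7 arrays of 100 days were above all of 70 days.

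Sephs2, which makes the selenium donor for selenoproteins, was nearly constant at 100 days. Its lowest, median and highest log2 intensity were 6.33, 6.40 and 6.48 at 100 days, against 5.10, 5.98 and 6.38 at 70 days (difference 0.54, SE 0.14, adjusted p = 0.355). Mettl18, a methyltransferase whose substrate is ribosomal protein L3, had 6.17, 6.26 and 6.50 at 100 days, against 5.35, 5.83 and 6.22 at 70 days, with a difference of 0.42 (SE 0.11, adjusted p = 0.355). For both genes 7 of 8 arrays of 70 days lay below every array of 100 days. Gcc1, a coiled-coil protein of the Golgi, had a difference of 0.50 (SE 0.13, adjusted p = 0.355). Its levels were 5.13, 5.34 and 6.04 at 100 days, against 4.43, 5.03 and 5.24 at 70 days, where it was detected on 1 of 8 arrays.

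The 8 genes of smallest p in the lower direction did not pass either, and their ages overlapped too. Ccnd2, the cell cycle regulator cyclin D2, had a lowest, median and highest log2 intensity of 8.16, 9.20 and 9.43 at 100 days, against 9.32, 10.04 and 10.43 at 70 days. The difference was -0.88 (SE 0.21, adjusted p = 0.191), and 7 of 8 arrays of 70 days were above all arrays of 100 days. The 4 arrays of high C1q were the highest of the 70 day group. Without the arrays of high C1q the Ccnd2 difference was -0.58 (limma adjusted p = 0.413). Eif4ebp2, a repressor that binds the translation initiation factor eIF4E, had 9.07, 10.17 and 10.49 at 100 days, against 10.16, 10.59 and 11.18 at 70 days (difference -0.68, SE 0.18, adjusted p = 0.355). The groups overlapped, with 6 of 8 arrays of 70 days above all of 100 days.

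Atm, the kinase that signals DNA breaks, had 5.42, 5.96 and 6.45 at 100 days, against 6.24, 6.48 and 7.16 at 70 days, with a difference of -0.57 (SE 0.15, adjusted p = 0.355). Cdk5, a cyclin-dependent kinase best known from neurons, had 5.19, 5.65 and 6.12 at 100 days, where it was detected on 4 of 7 arrays, against 5.66, 6.32 and 6.69 at 70 days (difference -0.61, SE 0.16, adjusted p = 0.357). In both genes 4 or 5 arrays of each age lay outside the range of the other age. Mfsd6, a membrane protein of the major facilitator family, had 4.98, 5.53 and 6.47 at 100 days, where it was detected on 5 of 7 arrays, against 5.76, 6.17 and 6.91 at 70 days. Its difference was -0.71 (SE 0.19, adjusted p = 0.357), and the highest array of 100 days lay well inside the range of 70 days.

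Ivns1abp, a kelch-domain protein that binds an influenza virus protein, had a lowest, median and highest log2 intensity of 5.77, 6.15 and 6.86 at 100 days, against 6.30, 7.05 and 7.74 at 70 days (difference -0.80, SE 0.22, adjusted p = 0.357). Without the arrays of high C1q its difference was -0.42 (limma adjusted p = 0.562). Plekhg2, a guanine nucleotide exchange factor, had 7.33, 7.63 and 8.13 at 100 days, against 7.87, 8.16 and 8.52 at 70 days (difference -0.51, SE 0.14, adjusted p = 0.357). Slc38a2, an amino acid transporter, had 8.98, 9.52 and 9.67 at 100 days, against 9.58, 10.09 and 10.63 at 70 days (difference -0.65, SE 0.18, adjusted p = 0.357). The groups of each overlapped, Slc38a2 by a single array of 70 days.

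**Figure D3:**
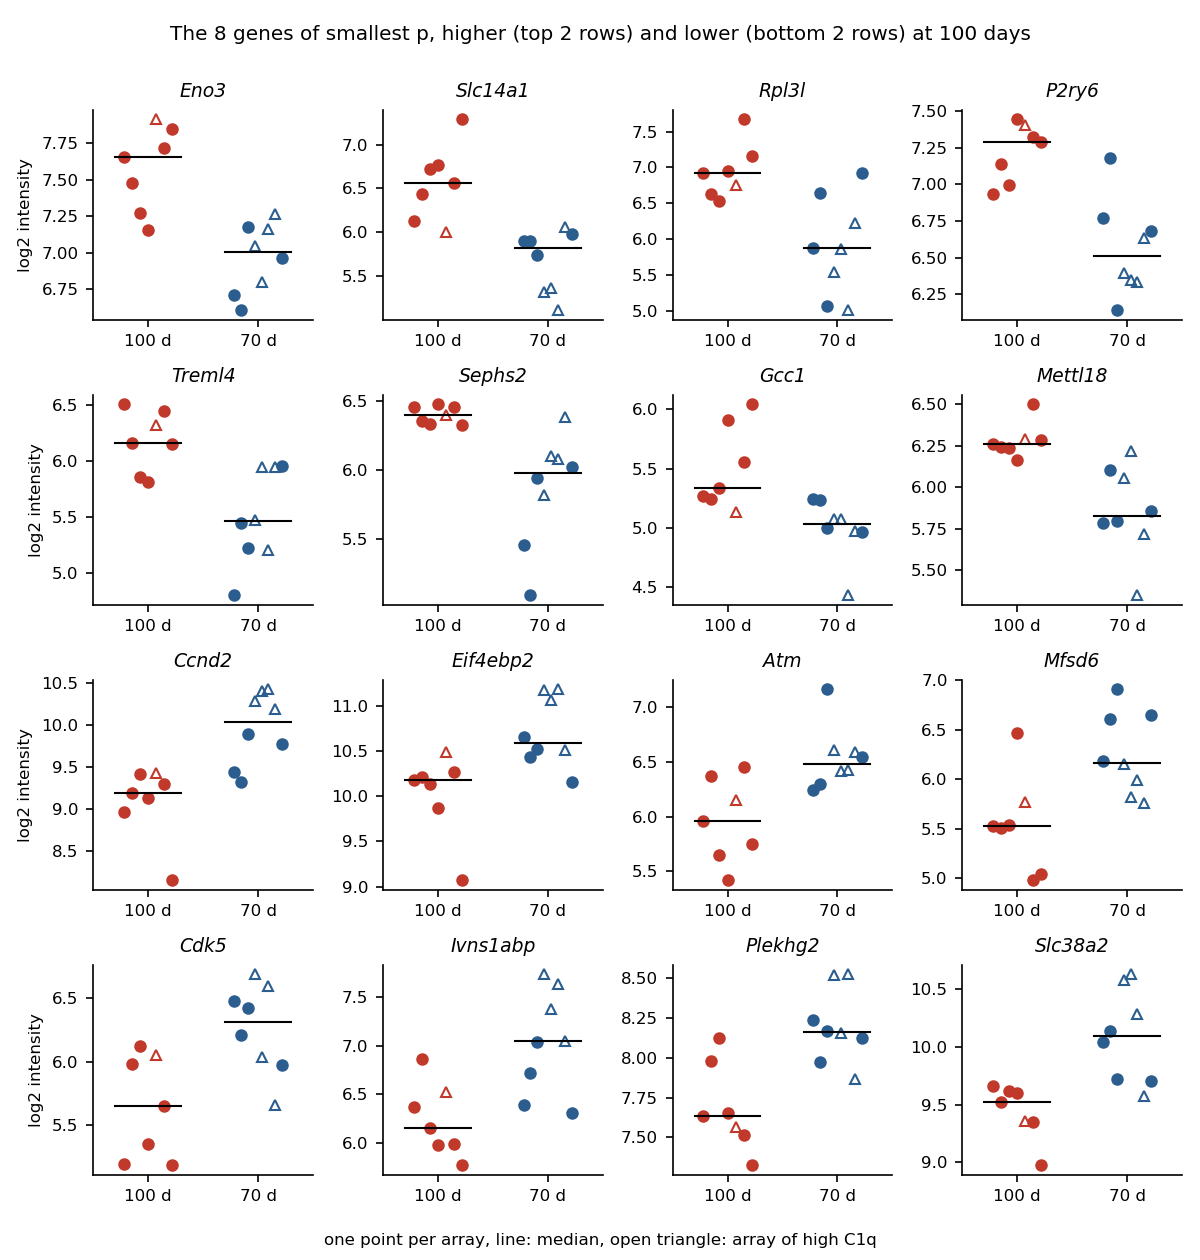
Log2 intensity (vertical axis) of the 16 named genes on each wild type blood array, 100 days left and 70 days right, with the group median as a line and arrays of high C1q as open triangles. The ranges of the ages overlapped in all 16 genes, and in Ccnd2 the 4 open triangles of 70 days were the highest points.

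The ages did not overlap for 3 genes (0.0357% of those tested), 2 higher (0.0238%) and 1 lower (0.0119%) at 100 days, which were named after their values were seen. The probe ILMN_2700059, to which the platform annotation gives no symbol, had a lowest, median and highest log2 intensity of 7.12, 7.67 and 8.05 at 100 days, against 5.91, 6.73 and 7.00 at 70 days. Its difference of 0.98 (SE 0.18) had the adjusted p of 0.0596, the nearest to the threshold. ILMN_2599997, also without a symbol, had 7.81, 8.08 and 8.27 at 100 days, against 8.36, 8.70 and 9.08 at 70 days (difference -0.64, SE 0.15, adjusted p = 0.191). Selenok, a selenoprotein of the endoplasmic reticulum membrane, had 8.70, 8.82 and 9.11 at 100 days, against 7.87, 8.44 and 8.69 at 70 days (difference 0.46, SE 0.13, adjusted p = 0.357).

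When the arrays of high C1q were left out, other genes had the smallest p. These 6 against 4 arrays gave an adjusted p of 0.0614 for 7 genes, of which Sephs2 and Mfsd6 are described above and 2 are probes without a symbol. The genes that follow were named after their values were seen. Tlr13, a receptor for bacterial ribosomal RNA, had a lowest, median and highest log2 intensity of 7.06, 7.42 and 8.07 at 100 days, against 6.08, 6.46 and 6.77 at 70 days (difference 1.07, SE 0.22). Over all 15 arrays its difference was 0.49 (limma adjusted p = 0.483). Bcl2a1b, a survival gene of granulocytes and monocytes with near-identical copies in the mouse genome that the probe may not separate, had 8.94, 9.42 and 9.98 at 100 days, against 8.17, 8.41 and 8.71 at 70 days. Its difference was 1.00 (SE 0.21) and that over all 15 arrays 0.63. Dhrs4, a carbonyl reductase, had 5.54, 5.81 and 6.28 at 100 days, against 5.11, 5.18 and 5.26 at 70 days (difference 0.67, SE 0.14), and over all 15 arrays its difference was 0.47. Clec4a1, a C-type lectin of myeloid cells, had 6.34, 6.77 and 7.47 at 100 days, against 4.84, 5.48 and 5.55 at 70 days (difference 1.53, SE 0.34, adjusted p = 0.109), and over all 15 arrays its difference was 0.99 (adjusted p = 0.357). Tlr7, a receptor for single-stranded RNA, had 6.55, 6.84 and 7.28 at 100 days, against 6.09, 6.18 and 6.30 at 70 days (difference 0.72, SE 0.17, adjusted p = 0.123), and over all 15 arrays its difference was 0.26 (adjusted p = 0.644). None of Tlr13, Bcl2a1b, Dhrs4, Clec4a1 and Tlr7 passed, and in each the remaining arrays of the ages did not overlap. They were picked from genes of small p in these same values, and how many of all genes did not overlap was not counted. Rhob and Ccdc28b, of smaller p than Tlr7, were passed over and did not overlap either. Mfsd6 and Dram1, also of smaller p than Tlr7, did overlap.

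Gene lists of blood cells held 0 called members each, and are described by their medians beside the median of 0.03 over all genes, of which 55.0% lay above 0. Of 9 monocyte genes 5 lay above 0, a share near that of all genes, with a median of 0.22. Fcgr4, an Fc receptor of patrolling monocytes, and Treml4 had unadjusted p under 0.05 in the higher direction, 2 of 9 beside 5.02% of all genes. Fcgr4 averaged 9.56 at 100 days and 8.96 at 70 days (difference 0.60, SE 0.23, adjusted p = 0.412). The lowest member was the lysozyme gene Lyz1 (-1.53, SE 0.82), which is also in the macrophage list, and without the arrays of high C1q the monocyte median was 0.61. Of 15 neutrophil genes 8 lay above 0 (median 0.18), with the largest difference in Retnlg, a secreted protein of mature neutrophils (0.79, SE 0.23, adjusted p = 0.357), and the lowest in Lcn2, a granule protein that binds bacterial iron carriers (-0.66, SE 0.53). Of 7 genes of immature granulocytes 1 lay above 0 (median -0.40), and Ngp, a protein of secondary granules, differed by -0.94 (SE 0.86). That median was 0.38 without the arrays of high C1q.

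Of the lymphocyte lists, the farthest from 0 was that of transitional and immature B cells, with 3 genes and a median of 0.28. Its highest member was Cd24a, a surface glycoprotein also found on other blood cells (0.48, SE 0.46), and its median was -0.06 without the arrays of high C1q. Of 15 T cell genes 3 lay above 0, with a median of -0.13, or -0.21 without the arrays of high C1q. Cd5, Cd6, Trat1 and Bcl11b had an unadjusted p under 0.05 in the lower direction, 4 of 15 beside 4.69% of all genes, and Cd247 in the higher direction. Bcl11b, a transcription factor that maintains T cell identity, averaged 8.88 at 100 days and 9.50 at 70 days (difference -0.62, SE 0.18, adjusted p = 0.357). Cd5, a receptor that dampens T cell receptor signals, differed by -0.53 (SE 0.16, adjusted p = 0.357), whereas Cd3e, Cd3d and Cd3g, the chains of the CD3 complex, differed by -0.08, -0.03 and -0.13 (SE 0.15 to 0.17). Of 14 B cell genes 5 lay above 0 (median -0.10), and Pou2af1, a B cell transcriptional coactivator, differed by -0.48 (SE 0.23, adjusted p = 0.494). Of 11 cytotoxic and natural killer genes 5 lay above 0 (median -0.07), and of 8 effector and memory T cell genes 7 (median 0.13). The B cell and cytotoxic medians changed sign under 3 and 7 alternative settings.

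Platelet and red cell lists had medians above 0 that were below 0 without the arrays of high C1q. Of 17 platelet genes 14 lay above 0, with a median of 0.28 and 0 members at an unadjusted p under 0.05. Pf4, platelet factor 4, differed by 0.28 (SE 0.35). Of 13 genes of the red cell membrane and cytoskeleton 12 lay above 0 (median 0.18), with Slc14a1 the highest and Rhd, the Rhesus D antigen, next (0.55, SE 0.28). Hbb-b2, a beta globin, had a lowest, median and highest log2 intensity of 7.88, 10.09 and 11.10 at 100 days, against 4.67, 9.21 and 10.29 at 70 days (difference 1.51, SE 0.65, adjusted p = 0.468), and it was detected on 7 of 7 and 7 of 8 arrays. The other globin genes differed less: Hba-a1, an adult alpha globin, averaged 15.16 at 100 days and 15.15 at 70 days, a difference of 0.01, and the embryonic genes Hba-x and Hbb-bh1 differed by 0.05 and 0.25. Hba-a1 ran from 15.06 to 15.30 at 100 days, near the highest intensities on the arrays. Quantile normalization leaves little room for a difference there, so its 0.01 is weak evidence of no change. These levels are what was left after globin depletion. Without the arrays of high C1q the medians were -0.11 for platelet genes, -0.05 for red cell membrane genes and -0.02 for globin genes.

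**Figure D4:**
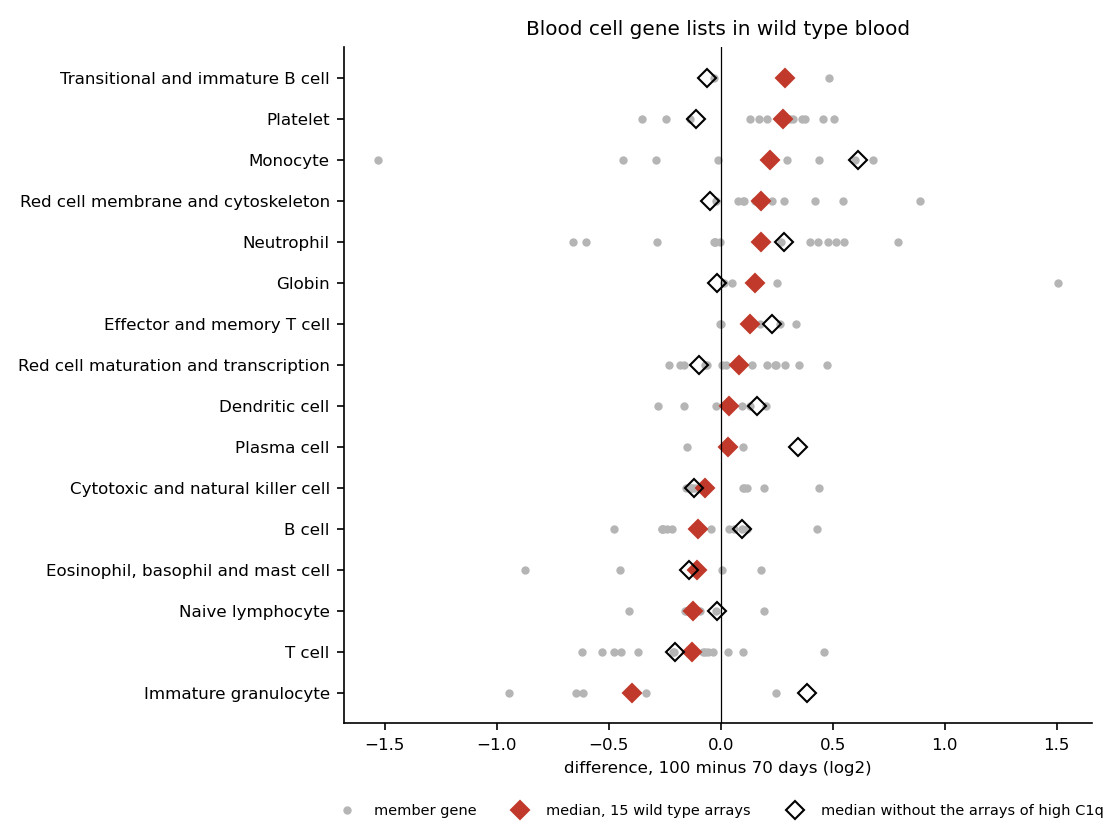
Differences between 100 and 70 days in wild type blood (horizontal axis, log2) for blood cell gene lists, with member genes as grey points, the list median over all 15 arrays as a filled diamond and that without the arrays of high C1q as an open diamond. The open diamonds of platelet, red cell membrane and globin genes lay just below 0 and that of monocyte genes at 0.61.

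Lists of cell processes had medians on both sides of 0. Peroxide and superoxide removal had a median of 0.25 with 8 of 10 genes above 0, and was at -0.01 without the arrays of high C1q. Its highest member was Gsr, glutathione reductase (0.83, SE 0.32, adjusted p = 0.430). Endoplasmic reticulum stress genes had a median of -0.21 with 4 of 10 above 0, and in that list Asns, asparagine synthetase, differed by 0.86 (SE 0.35) and Pdia4, a folding enzyme, by -0.35 (SE 0.13). Heat shock genes had a median of -0.17 with 2 of 6 above 0, and -0.41 without the arrays of high C1q. Of 67 oxidative phosphorylation genes 43 lay above 0 (median 0.05), of 44 cytosolic ribosomal protein genes 27 (median 0.04) and of 31 proteasome genes 8 (median -0.04). Of 20 proliferation genes 7 lay above 0 (median -0.10). Of 14 interferon response genes 5 did (median -0.08), and Oas2, an antiviral enzyme that makes oligoadenylates, differed by -0.72 (SE 0.29, adjusted p = 0.439). Glucocorticoid response genes had a median of 0.24 with 8 of 11 above 0. In that list Cxcr4, a chemokine receptor, differed by 0.52 (SE 0.22) and the phosphatase gene Dusp1 by 0.52 (SE 0.25), while the chaperone gene Fkbp5, itself a steroid target, differed by -0.45 (SE 0.22), with adjusted p of 0.449, 0.489 and 0.499 in that order. Clock genes had a median of 0.09, with Nr1d1, a repressor of the clock, at 0.31 (SE 0.11, adjusted p = 0.379) and Rora, its activating counterpart, at -0.62 (SE 0.27, adjusted p = 0.467).

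Arrays of one age differed widely from each other. The mean of red cell membrane genes, relative to all wild type blood, ran between -0.80 and 1.17 at 100 days and between -1.32 and 0.82 at 70 days. The lowest arrays, replicate 5 at 100 days (-0.80) and replicate 6 at 70 days (-1.32), were the highest for MHC class II genes, which present antigen on B cells and other white cells (0.75 and 0.94). Replicate 7 at 100 days was the reverse, with 1.17 for red cell membrane genes, -0.97 for MHC class II genes and -0.76 for T cell genes. Genes of immature granulocytes ran between -1.25 and 1.19 at 100 days and between -1.06 and 2.41 at 70 days. The arrays above 0.5 in this list were replicates 4 and 7 at 100 days and replicates 4, 5 and 7 at 70 days, so they were partly the arrays of high C1q. The median SD of a gene was 0.34 at 100 days and 0.38 at 70 days in wild type, against 0.24 and 0.26 in G93A-SOD1 mice of the same ages.

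The same ages were compared in G93A-SOD1 blood, whose arrays share no sample with the wild type arrays. There too 0 of 8403 genes (0%) passed by limma, and 495 (5.89%) had an unadjusted p under 0.05. Whether the age difference itself differed between the genotypes was tested as an interaction, G93A-SOD1 minus wild type, and 0 genes (0%) passed, with 121 (1.44%) at an unadjusted p under 0.05 and a smallest adjusted p of 0.9998. Across the genes tested, which are not independent of each other, the age differences of the genotypes had a Pearson r of 0.515, and 5646 (67.2%) had the same sign.

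Of the 16 named genes 12 had the same sign in G93A-SOD1 blood, beside 67.2% of all genes. At an unadjusted limma p under 0.05 there were 8 of the 16, beside 5.89% of all genes. The fit gave each gene the same spread in both genotypes, so genes picked for a small wild type p are favoured in G93A-SOD1 too. Slc38a2 differed by -0.66 (SE 0.18) in G93A-SOD1 and -0.65 (SE 0.18) in wild type, and Plekhg2 by -0.55 (SE 0.14) in G93A-SOD1 and -0.51 (SE 0.14) in wild type. Rpl3l differed by 0.64 (SE 0.22) in G93A-SOD1 and 1.05 (SE 0.23) in wild type. Slc14a1 had the smallest interaction p. Its lowest, median and highest log2 intensity in G93A-SOD1 blood were 5.35, 6.32 and 6.51 at 100 days, against 5.84, 6.19 and 6.76 at 70 days, a difference of -0.09 (SE 0.18), and the interaction was -0.98 (SE 0.26, adjusted p = 0.9998). Slc2a9, a urate transporter detected on 4 of 7 wild type arrays at 100 days and 1 of 8 at 70 days, differed by -0.17 (SE 0.11) in G93A-SOD1 and 0.39 (SE 0.11) in wild type (interaction -0.56, SE 0.15, adjusted p = 0.9998). Mfsd6 differed by 0.11 (SE 0.19) in G93A-SOD1 and -0.71 (SE 0.19) in wild type (interaction 0.82, SE 0.27, adjusted p = 0.9998). These age differences were therefore not shown to differ between the genotypes.

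**Figure D5:**
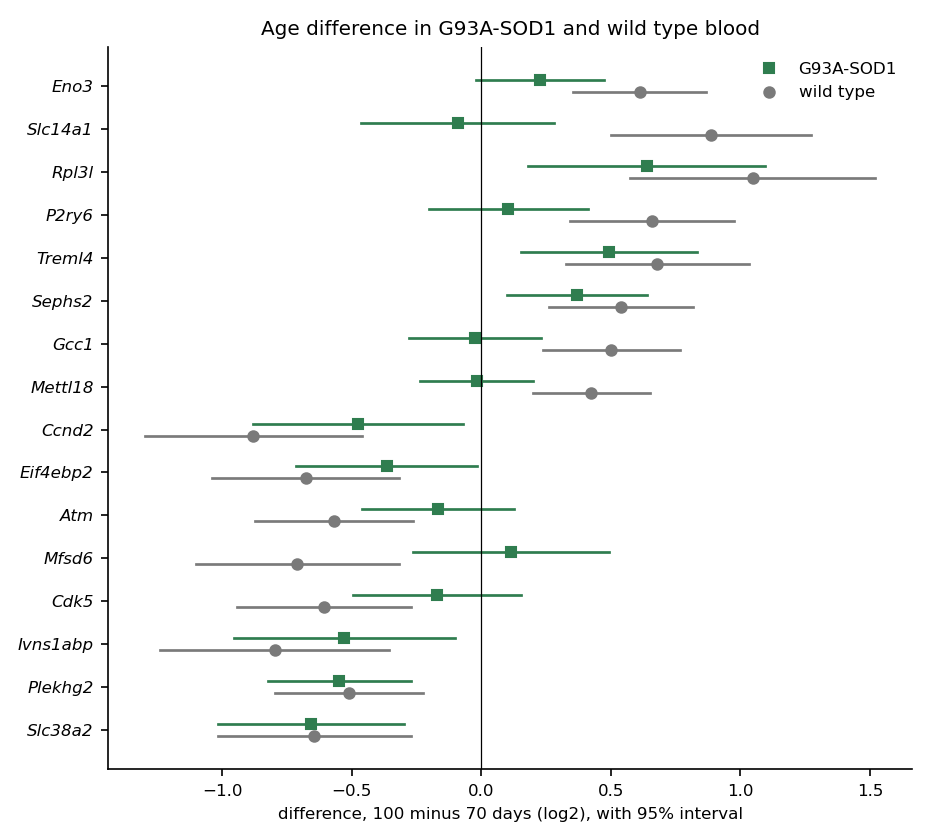
Age difference of the 16 named genes (horizontal axis, log2, 100 minus 70 days) in G93A-SOD1 blood (squares) and wild type blood (circles), with 95% intervals from the limma fit. Slc38a2 and Plekhg2 nearly coincided, whereas Slc14a1 lay at -0.09 in G93A-SOD1 and 0.89 in wild type.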

How the data were processed

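Gene expression was read on Illumina bead arrays, and the blood arrays were analysed here. The signal intensity of 24613 probes was deposited without normalization, per the file headers, together with a detection p-value for each probe; the scanner software is not named in the sources. The authors' deposited series matrix has log2 values, and how they were normalized is not stated there. Another 7 lines named no probe and were dropped (0.00539% of the signal).

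Background correction and quantile normalization within the 31 blood arrays used neqc of limma (offset 16). A probe was tested when its detection p was under 0.05 on at least 7 blood arrays, and each gene was represented by its brightest probe. In the platform annotation 20984 probes had 1 gene symbol, 1 several and 3628 none. Of these, 20968 were matched by Entrez identifier to RefSeq (GRCm38.p6). Of the genes tested 7164 had a symbol and 1239 were probes without one, counted as genes.

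Limma fitted the 4 blood groups together, with p-values adjusted by Benjamini and Hochberg at 0.05; the fit was tested on simulated data. Every p-value of a single gene is from limma. Genes named were the 8 with a symbol and the smallest p in each direction, since none passed, the 2 brightest members of each blood cell list as a description, and the 3 smallest interaction p; all other genes, list members among them, were named after their values were seen. The members, the 41 gene lists and the rules were chosen with earlier results of these data known, and the macrophage and airway lists after these values were seen. The labels do not say whether replicate numbers pair the arrays, and the main fit used no pairing. Alternatives tried were median centring, normalization with the other tissues, no background correction, no or a stricter detection filter, every probe, wild type arrays only, array weights, a trended variance, a replicate block, the series matrix values, leaving out each array, and, added after seeing the data, leaving out the arrays of high C1q (mean of the C1q genes over 7). Software was R 4.3.3, limma 3.58.1, data.table (version 1.17.8), Python 3.11.15 and matplotlib 3.10.9.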

Additional observations from a re-analysis of the deposited data

Results flagged for a closer look

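Single arrays lay far from the others of their group in 3 of 8 group ranges of array quality, 5 of 68 of list means, 6 of 106 of single genes and 2 of 6 of the macrophage and airway measures. For independent measures chosen beforehand, the rule would mark about 1 in 20 by chance. That rate does not apply to the quality flags, which all fell on the same array. Nor does it apply to the macrophage measures, which were made after these values were seen. The shares for list means and single genes, 5 of 68 and 6 of 106, were near 1 in 20. Those flags are given as description only. Replicate 6 at 70 days had a median raw intensity of 190.8, a 5th percentile of 137.7 and an upper quartile of 244.1, far above the rest of its group, and the lowest Gcc1 level (4.43). Replicate 5 at 100 days had a C1q mean of 10.10 and a mean of the macrophage genes of 9.30, and the lowest globin list mean (-0.48). Replicate 7 at 100 days had the highest interferon response list mean (0.45), the lowest means of cytosolic ribosomal protein genes (-0.32), and the lowest levels of Ccnd2 (8.16) and Cd8b1 (10.47). Replicate 6 at 100 days had the highest levels of S100a9, a neutrophil calcium-binding protein (12.81), and of Mettl18 (6.50). Replicate 3 at 70 days had the lowest circadian clock list mean (-0.34) and the highest Atm level (7.16). Replicate 8 at 70 days had the highest mean of the muscle markers Tnni2, Pvalb and Acta1 (1.83). What lay behind these values was not tested.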

How the results depend on the processing

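The count of 0 genes called in wild type blood became 1 without background correction, 1 with genes detected on all wild type arrays and 1 with the series matrix values, each time ILMN_2700059. Without single arrays it ran from 0 to 3: 3 without replicate 7 at 70 days (ILMN_2700059, ILMN_2663259 and Eno3), and 1 without replicate 5 at 70 days or replicate 2 at 100 days. With the replicate block it was 2 (ILMN_2700059 and Slc14a1). The labels do not say whether the replicate numbers pair the arrays. Of 7 same-numbered pairs 3 correlated over 0.1 (r from -0.465 to 0.488), and in 0 the best match had the same number. So few pairs cannot settle whether the numbers pair the arrays. Genes at an unadjusted p under 0.05 numbered 291 after median centring, 1784 without a detection filter (more probes tested), 469 with the stricter filter (fewer tested), 444 with only wild type arrays in the fit and 314 when replicate 6 at 70 days was left out as well. Leaving out single arrays gave 557 (replicate 6 at 70 days) to 1278 (replicate 5 at 100 days), with 1240 without replicate 2 at 70 days. The G93A-SOD1 count became 1 with the stricter filter, 7 with array weights, 1 with the replicate block and 1 (Retnlg) without the arrays of high C1q; it was also 1 without wild type replicate 6 at 100 days, or replicate 3 or 7 at 70 days, which enter its estimate of the spread. Interaction counts stayed at 0. Of 19 genes followed through the alternatives (the 16 named genes, Selenok and 2 probes) 0 changed sign. The cause of these shifts was not tested beyond the number of genes tested.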
